A study of Homo sapiens with 6 samples.

Results

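The genes that encode the subunits of oxidative phosphorylation were examined in A549 cells after siRNA knockdown of the long noncoding RNA PLANE. Members were chosen by gene symbol alone. They comprised the 13 protein-coding genes of the mitochondrial genome (symbols starting with MT-ND, MT-CO, MT-CYB or MT-ATP) and 90 nuclear genes (symbols starting with NDUFA, NDUFB, NDUFC, NDUFS, NDUFV, SDHA to SDHD, UQCR, COX4 to COX8 or ATP5, without the NDUFAF assembly factors), that is 103 of 34957 genes in the tables. A549 is an established lung adenocarcinoma cell line. The cells had received a control siRNA (si-ctrl), a first siRNA against PLANE (si-PLANE.1) or a second one (si-PLANE.2) with Lipofectamine 3000, and their RNA was sequenced 48 h later. There were 6 libraries, 2 per group, with the numbers 3 and 4 in the si-PLANE.2 group and 1 and 2 in the others. All libraries came from this 1 line and all had been transfected. No label stated that libraries of a group came from separate cultures, so the p-values measure only the spread between these libraries, which may be technical. PLANE itself was not analysed here.

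Oxidative phosphorylation takes place in the inner mitochondrial membrane. Complex I (NADH dehydrogenase) and complex II (succinate dehydrogenase) pass electrons through ubiquinone to complex III (cytochrome bc1) and from there through cytochrome c to complex IV (cytochrome c oxidase), while complexes I, III and IV pump protons that complex V (ATP synthase) uses to make ATP. Complex II is built from nuclear genes alone. The other complexes combine subunits from both genomes: the mitochondrial genes are transcribed in the organelle as long joint transcripts from both strands of mitochondrial DNA and then cut apart, whereas the nuclear genes are transcribed singly in the nucleus and their proteins are imported.

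A pair of values stood for each gene: the expected count, which is the number of reads assigned to the gene by estimation, and FPKM, the number of fragments scaled to transcript length and library depth, which allows levels to be compared between genes. Libraries held 10572151 to 20778431 expected counts, the si-PLANE.2 libraries having the most. The A549 label was checked against 8 markers of this epithelial line, including KRT8 and KRT18, all of which were at 1 FPKM or more in every library. Of 5 leukocyte, 5 fibroblast and 2 endothelial markers, at most 2, 2 and 0 reached 1 FPKM in any library, with summed levels of 6.34 to 11.3, 3.45 to 13.9 and 0.05 to 0.59 FPKM. Both si-PLANE.2 libraries differed from the rest. Canonical histone genes, whose mRNAs mostly lack a poly(A) tail, had a median level of 0.58 and 0.835 FPKM in these libraries, against 60.4 to 101 FPKM in the others. The study's methods name both poly(A) RNA isolation and ribosomal RNA removal but do not say which was used where, so the second siRNA and the way these libraries were made cannot be told apart for any result on si-PLANE.2 below. In addition, as in any bulk sample, fewer cells expressing a gene and less RNA per cell cannot be told apart.

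The genes of the mitochondrial genome lie close together and in part overlap, which bears on their values. A pair of short genes is shown here, in the GENCODE annotation of GRCh37, plus strand, with the bases shared with the next gene in capitals. FPKM and counts told different stories for MT-ATP8, whereas the rise of MT-ND4L stood in both, as given below. MT-ATP8, which encodes a small subunit of ATP synthase, occupies chrM:8366-8572 (207 bases), of which 46 also belong to MT-ATP6. MT-ND4L, a membrane subunit of complex I, occupies chrM:10470-10766 (297 bases), of which 7 also belong to MT-ND4. A read in such a stretch can come from either gene of its pair.
MT-ATP8: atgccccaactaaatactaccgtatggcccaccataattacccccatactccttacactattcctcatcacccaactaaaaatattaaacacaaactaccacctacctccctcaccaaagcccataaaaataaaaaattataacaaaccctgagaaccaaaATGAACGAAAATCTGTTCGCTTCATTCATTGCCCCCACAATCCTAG
MT-ND4L: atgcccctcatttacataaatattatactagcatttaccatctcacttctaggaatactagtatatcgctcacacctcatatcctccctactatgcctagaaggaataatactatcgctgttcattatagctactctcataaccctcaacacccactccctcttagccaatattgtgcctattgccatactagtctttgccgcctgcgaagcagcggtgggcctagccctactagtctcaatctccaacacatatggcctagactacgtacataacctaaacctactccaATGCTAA

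In the si-ctrl libraries every mitochondrial gene lay above every nuclear member by mean FPKM. The lowest mitochondrial mean was 637.5 FPKM, for MT-ND6, and the highest nuclear mean was 631.9 FPKM, for COX6A1, the broadly expressed form of a small complex IV subunit. In both si-ctrl libraries 81 of the 90 nuclear members were at 1 FPKM or more, and 30 were above 100 FPKM. A minimum mean of 0.5 FPKM was needed for a gene to be tested, which all 13 mitochondrial genes and 82 nuclear members met. The other 8 were COX4I2, COX6A2, COX7A1, COX7B2, COX8C, NDUFC2-KCTD14, UQCRHL and ATP5MGL. COX4I2, COX6A2 and COX7B2, forms of complex IV subunits known from particular tissues such as lung, muscle and testis, were listed at 0 in every library.

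Together the 13 mitochondrial genes took a like share of all expected counts in each group. It was 5.36% and 7.09% in si-ctrl, 5.43% and 6.24% in si-PLANE.1, and 6.10% and 6.04% in si-PLANE.2. The values of both siRNA groups fell within the range spanned by the si-ctrl libraries. The 90 nuclear members took 0.608% and 0.562% of counts in si-ctrl, 0.544% and 0.537% in si-PLANE.1, and 1.06% and 1.01% in si-PLANE.2. The share was thus highest in both si-PLANE.2 libraries and lowest in both si-PLANE.1 libraries. As a result the number of mitochondrial counts per nuclear count was 10.7 ± 2.67 in si-ctrl, 10.8 ± 1.16 in si-PLANE.1 and 5.85 ± 0.179 in si-PLANE.2 (SD, n = 2 each). With 2 libraries against 2 no exact permutation test can reach the threshold, and these sums were given no test.

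**Figure D1:**
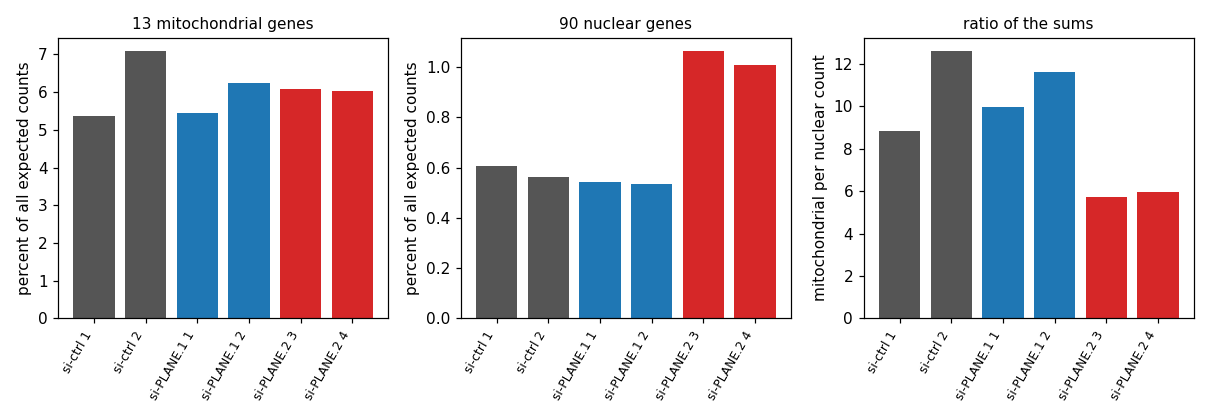
Bars show, for each of the 6 libraries, the percent of all expected counts in the 13 mitochondrial genes (left) and the 90 nuclear members (middle), and the mitochondrial counts per nuclear count (right); grey is si-ctrl, blue si-PLANE.1 and red si-PLANE.2. The nuclear share is 1.06% and 1.01% in si-PLANE.2 and 0.537% to 0.608% in the other libraries, while the mitochondrial shares overlap.

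After si-PLANE.1 no subunit gene of either genome passed the test. Most members had values slightly below those of si-ctrl. A median log2 fold change of -0.17 was found over the 13 mitochondrial genes, of which 11 were below 0, and of -0.19 over the 82 nuclear members tested, of which 77 were below 0, against 0.0018 over all 14535 genes tested. By complex the nuclear medians were -0.17 for complex I, -0.08 for complex II, -0.27 for complex III, -0.20 for complex IV and -0.22 for complex V. Single members lay between -0.58 and 0.54. The mitochondrial median rested on the si-ctrl libraries, which differed from each other, and was 0.03 without si-ctrl library 2 and -0.28 without si-ctrl library 1.

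The edgeR quasi-likelihood test with Benjamini-Hochberg adjustment called 0 of these 95 genes after si-PLANE.1, and DESeq2 and limma also called 0. The result depended on the model, however. With same-numbered si-ctrl and si-PLANE.1 libraries taken as pairs, edgeR called 7 nuclear members and some mitochondrial genes, all lower. The share of all genes called, in either direction, rose to about that of the nuclear members, as given in the last section. Without such pairs edgeR called 0.00688% of all genes higher and 0.0275% lower. At an unadjusted p under 0.05, 0 mitochondrial genes, 1 nuclear member higher and 15 nuclear members lower were found, where 4.67% of all genes were higher and 5.77% lower. Whether libraries overlapped was read from TMM-scaled values, here and in the same comparison for si-PLANE.2. Both si-PLANE.1 libraries lay below both si-ctrl libraries for 52 of 82 nuclear members (63.4%) and 3 of 13 mitochondrial genes (MT-ND6, MT-CYB and MT-ND2), against 21.3% of all genes. Both lay above for 3 nuclear members (3.66%) and 0 mitochondrial genes, against 22.1% of all genes. The nuclear members were therefore on the low side more often than genes at large, by amounts that single genes did not resolve.

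Among single members after si-PLANE.1, ATP5MC3, 1 of the 3 genes for the c-ring subunit of ATP synthase, had 123.4 and 95.4 FPKM with si-ctrl and 85.2 and 83.6 FPKM after si-PLANE.1. Its log2 fold change was -0.55 ± 0.13 (SE), with an adjusted p of 0.298. NDUFC1, a small accessory subunit of complex I that was picked after its values were seen, had 27.1 and 16.6 FPKM with si-ctrl and 13.6 and 13.4 FPKM after si-PLANE.1. It was the member with the lowest log2 fold change in this comparison, -0.58, with an adjusted p of 0.445. NDUFA4L2, a hypoxia-inducible paralog of the complex IV subunit NDUFA4, had the highest, 0.54, from levels of 0.66 to 1.32 FPKM. In all 3 genes the siRNA libraries did not overlap si-ctrl by TMM-scaled values, yet the difference was not called.

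After si-PLANE.2 the subunit genes of the nuclear genome rose broadly, and those of the mitochondrial genome moved in both directions. Of 82 nuclear members tested, 70 rose, 2 fell and 10 did not pass, with a median log2 fold change of 1.03, a 2.05-fold difference. Of 13 mitochondrial genes, 6 rose, 1 fell and 6 did not pass, with a median of 0.34 that was 0.06 without si-ctrl library 1 and 0.67 without si-ctrl library 2. Over all 14168 genes tested the median was -0.03, with 31.8% of genes called higher and 32.3% called lower by edgeR's quasi-likelihood test with Benjamini-Hochberg adjustment. The nuclear count lay well above this background and the mitochondrial count closer to it. Both si-PLANE.2 libraries lay above both si-ctrl libraries for 75 nuclear members and 8 mitochondrial genes (all genes 40.3%), and below both for 2 nuclear members, NDUFB5 and COX6B2, and 2 mitochondrial genes, MT-ND1 and MT-ND5 (all genes 42.1%).

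**Figure D2:**
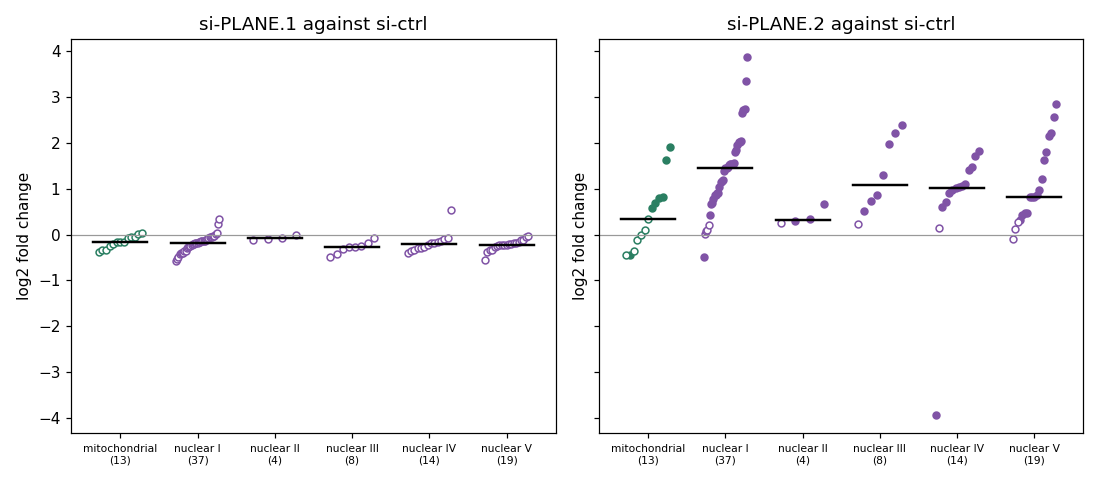
Each point is a tested gene, by log2 fold change against si-ctrl after si-PLANE.1 (left) and si-PLANE.2 (right), for the 13 mitochondrial genes (green) and the nuclear members of complexes I to V (purple), with the number tested in brackets; filled points have an edgeR adjusted p under 0.05, and black lines are medians. On the left all points are open, and on the right the nuclear medians are 1.44, 0.32, 1.07, 1.02 and 0.82 for complexes I to V, against 0.34 for the mitochondrial genes.

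The mitochondrial gene with the largest change was MT-ND6, a complex I subunit and the only protein gene read from the light-strand promoter (chrM:14149-14673, minus strand). Its level was 673 and 602 FPKM with si-ctrl, 648 and 437 with si-PLANE.1 and 2186 and 1751 with si-PLANE.2. Both si-PLANE.2 libraries were far above the other 4, which overlapped. By counts it rose by a log2 fold change of 1.90 ± 0.14 (SE, adjusted p = 2.561e-05 in edgeR's quasi-likelihood test). The other strand at this position is transcribed too, as part of the heavy-strand transcript that holds MT-ND5 and MT-CYB. Whether strand was used in counting was not given in the sources used here, so reads of the 2 strands may not have been told apart.

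MT-ND4L, shown above, had 5999 and 7294 FPKM with si-ctrl, 6772 and 7417 with si-PLANE.1 and 12874 and 15402 with si-PLANE.2. It rose by 1.62 ± 0.14 (log2 scale, SE, adjusted p = 5.668e-05). MT-ND4, the complex I gene that it overlaps, had 6242 and 8966 FPKM with si-ctrl and 4960 and 5418 FPKM with si-PLANE.2, with a log2 fold change of -0.36 ± 0.19 that was not called (DESeq2 adjusted p = 0.0418). The overlapping neighbours, which share 1 messenger RNA, thus had values that differed in sign.

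The remaining complex I genes of the mitochondrial genome changed less. MT-ND3 had 2670 and 4020 FPKM with si-ctrl, 3145 and 3645 with si-PLANE.1 and 4431 and 3639 with si-PLANE.2. Its FPKM overlapped between groups, and its call by counts (0.68 ± 0.20, adjusted p = 0.0194) was lost with DESeq2 (adjusted p = 0.0764). MT-ND5 had 2588 and 3345 FPKM with si-ctrl, 3296 and 3169 with si-PLANE.1 and 1876 and 1966 with si-PLANE.2. It was the 1 mitochondrial gene that fell, by 0.44 ± 0.15 on the log2 scale (adjusted p = 0.0372), and this call was lost with all 6 libraries in one fit (adjusted p = 0.0645) and without either si-PLANE.2 library. MT-ND1 and MT-ND2 had log2 fold changes of -0.13 and 0.10 and were not called, while limma on log2(FPKM + 1) called MT-ND1 lower (-0.34, adjusted p = 0.0385).

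MT-CYB, the only mitochondrial gene of complex III, had 2628 and 2841 FPKM with si-ctrl, 2574 and 2596 with si-PLANE.1 and 3515 and 3601 with si-PLANE.2, and rose by 0.59 ± 0.11 (log2 scale, SE, adjusted p = 0.00284). Of the catalytic core of complex IV, MT-CO2 had 9047 and 12644 FPKM with si-ctrl, 10896 and 11495 with si-PLANE.1 and 16380 and 15699 with si-PLANE.2. MT-CO3 had 5664 and 7911 FPKM with si-ctrl, 4304 and 6773 with si-PLANE.1 and 10583 and 9897 with si-PLANE.2. For both genes the si-PLANE.2 libraries lay above all others, and they rose by 0.80 ± 0.18 and 0.82 ± 0.18 on the log2 scale (adjusted p = 0.00541 and 0.00487). MT-CO1, the largest subunit of the complex, took 37.0% to 42.4% of the mitochondrial counts in each library, and its log2 fold change of -0.02 was not called, but was called at 0.26 without si-ctrl library 2 and at -0.26 without si-ctrl library 1. The calls of MT-CO2, MT-CO3, MT-CYB and MT-ND3 did not hold without si-PLANE.2 library 3, and that of MT-CYB did not hold without library 4 either. Such fits leave a lone library in the si-PLANE.2 group, and fewer nuclear members were called in them too.

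The 2 mitochondrial genes of complex V were not called after si-PLANE.2. MT-ATP6, which forms the proton channel, had 6277 and 9342 FPKM with si-ctrl, 5264 and 7874 with si-PLANE.1 and 8375 and 8452 with si-PLANE.2, with a log2 fold change of 0.34 ± 0.19 that was 0.68 and called without si-ctrl library 2. MT-ATP8 had the highest FPKM of all members, 37805 and 65267 in si-ctrl, 36135 and 51580 in si-PLANE.1, and 19834 and 16840 in si-PLANE.2. Its FPKM thus fell clear of the other libraries, whereas by counts the log2 fold change was -0.46 ± 0.26. With limma on log2(FPKM + 1) it was called lower, at -1.44 (adjusted p = 0.00707), and by counts it was called at -0.85 without si-ctrl library 1 but was 0.06 without si-ctrl library 2. MT-ATP8 made up 33.7% to 41.8% of the mitochondrial FPKM with si-ctrl and si-PLANE.1 and 17.8% and 15.5% in si-PLANE.2, but 0.364% to 0.692% of the mitochondrial counts in every library. Counts divided by FPKM gave the length that had been used for each transcript. The bases taken off the annotated length were read over 59 to 73 of the members' longer transcripts in each library. Their median was 251.3 to 252.4 in si-ctrl and si-PLANE.1, and 232.3 and 234.3 in si-PLANE.2. Fewer bases were taken off the shortest transcripts of members. For MT-ATP8, with 207 bases, the length used was 7.22 to 8.14 bases in the first 4 libraries and 13.9 and 13.1 bases in si-PLANE.2, so its FPKM rested on far fewer bases than the gene has. For MT-ND4L the lengths used were 52.8 to 53.5 bases and 68.9 and 67.0 bases, and its rise stood in both units.

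**Figure D3:**
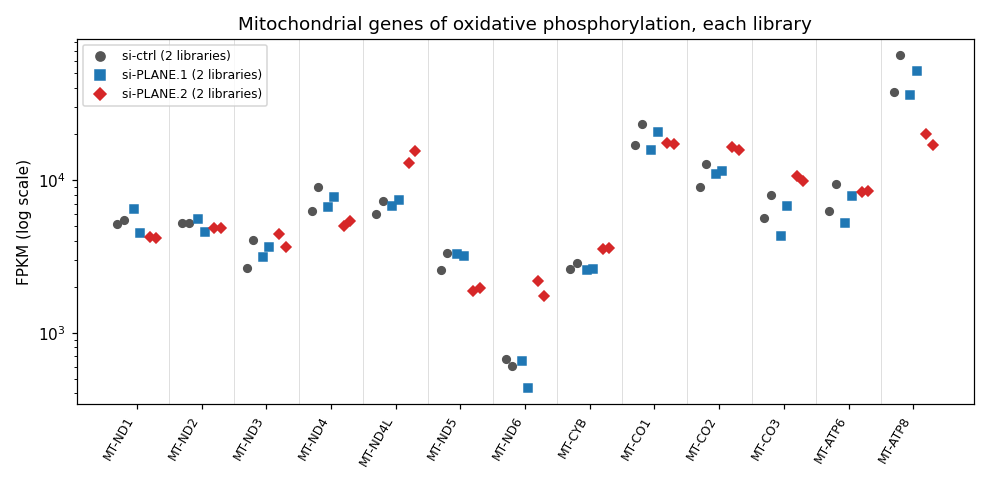
Points show the FPKM (log scale) of the 13 mitochondrial genes in each library, with si-ctrl as grey circles, si-PLANE.1 as blue squares and si-PLANE.2 as red diamonds, 2 libraries each. MT-ND6 and MT-ND4L are highest in both si-PLANE.2 libraries, MT-ATP8 and MT-ND5 are lowest there, and MT-CO1 overlaps between all groups.

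Nuclear copies of mitochondrial DNA could draw reads from these genes. The most abundant, MTATP6P1, a 681-base copy of MT-ATP6 on chromosome 1, differed from the mitochondrial gene at 10 of 681 positions (98.5% identity), and had 1099 and 1545 FPKM with si-ctrl, 919 and 1326 with si-PLANE.1 and 786 and 779 with si-PLANE.2. Because the copies share long identical stretches, the split of reads between them is uncertain. All copies together took 0.0431% to 0.0700% of counts, so adding them to the mitochondrial genes changed their share little, to 5.41% and 7.15% in si-ctrl and 6.14% and 6.09% in si-PLANE.2. For MT-ATP6 alone the split weighs more. MTATP6P1 had 6443 and 9452 counts in si-ctrl, beside 36801 and 57132 for MT-ATP6. In si-PLANE.2 it had 7334 and 6360 counts, beside 78087 and 69023. The effect on the fold change of MT-ATP6 was not tested. Of the 390 copies in the tables, 18 passed the minimum in the comparison of si-PLANE.2 with si-ctrl, of which 2 rose and 13 fell. Most copies that fell were near 0 in si-PLANE.2 and passed the minimum through si-ctrl, so the direction of this count is set in part by the minimum.

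Complex I, the largest complex, showed the highest nuclear median. Of its 37 nuclear members tested 32 rose, 1 fell and 4 did not pass, and the summed level of all 38 was 2507 and 2311 FPKM with si-ctrl, 2237 and 2187 with si-PLANE.1 and 5753 and 5451 with si-PLANE.2. NDUFS6, which carries a zinc site in the matrix arm, showed the largest rise of any member. It had 9.96 and 7.27 FPKM with si-ctrl, 8.0 and 6.16 with si-PLANE.1 and 133 and 121 with si-PLANE.2. Both si-PLANE.2 libraries were over 10 times as high as any other library, and the log2 fold change was 3.87 ± 0.12 (SE, adjusted p = 2.029e-06 in edgeR's quasi-likelihood test).

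NDUFA1, an accessory subunit of the membrane arm encoded on the X chromosome, had 30.1 and 22.9 FPKM with si-ctrl, 30.37 and 25.04 with si-PLANE.1 and 231 and 227 with si-PLANE.2. It rose by 3.34 ± 0.14 on the log2 scale (adjusted p = 4.366e-06). NDUFB2, another membrane-arm accessory subunit, rose by 2.73, from 62.1 and 49.2 to 324 and 305 FPKM. The most abundant complex I members in si-ctrl rose less on the log2 scale, by 1.18 for NDUFB1, 0.43 for NDUFS8, an iron-sulphur subunit, and 0.91 for NDUFA11, and the call of NDUFS8 was lost without either si-PLANE.2 library. NDUFB5 was the only complex I member that fell. It had 53.9 and 52.4 FPKM with si-ctrl, 47.7 and 59.9 with si-PLANE.1 and 34.1 and 28.7 with si-PLANE.2, with a log2 fold change of -0.49 ± 0.12 (adjusted p = 0.00783) that was not called without si-PLANE.2 library 4 (adjusted p = 0.108).

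Complex II differed from the other complexes in size of change. Of its 4 members 3 rose by counts after si-PLANE.2, with a median log2 fold change of 0.32. Its summed level was 351 and 342 FPKM with si-ctrl, 340.2 and 340.4 with si-PLANE.1 and 334 and 313 with si-PLANE.2, so by FPKM it was slightly lower. SDHA, the flavoprotein that oxidises succinate, had 109.5 and 104.5 FPKM with si-ctrl and 95.6 and 94.5 FPKM with si-PLANE.2, while by counts its log2 fold change was 0.30 ± 0.10 (SE, adjusted p = 0.0255). SDHB, the iron-sulphur subunit, and SDHC, a membrane anchor, rose by 0.34 and 0.65 on the log2 scale by counts. SDHD, the other anchor, picked to complete the complex after its values were seen, had a log2 fold change of 0.26 and did not pass (adjusted p = 0.0625). With limma on log2(FPKM + 1) the log2 values of SDHA, SDHB and SDHC turned to -0.17, -0.07 and -0.13, where the median of all genes was -0.22, so that relative to it they were 0.06, 0.15 and 0.10. The direction of the change of complex II therefore depended on the unit, and the calls of SDHA and SDHB were lost without either si-PLANE.2 library. Pseudogenes of SDHA held 45.4% to 58.0% as much FPKM as SDHA itself, and 18.9% of the 31-base words of SDHA also occurred in SDHAP2, so its reads are uncertain as well.

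In complex III 7 of 8 tested nuclear members rose and 1 did not pass, and the summed level went from 893 and 856 FPKM with si-ctrl to 1800 and 1661 FPKM with si-PLANE.2, with 776 and 744 FPKM with si-PLANE.1. UQCR11, a small subunit of the complex, had 20.4 and 20.9 FPKM with si-ctrl, 23.5 and 20.3 with si-PLANE.1 and 94.1 and 88.7 with si-PLANE.2. It rose by 2.38 ± 0.11 on the log2 scale (SE, adjusted p = 5.809e-06). UQCRQ and UQCRH, a ubiquinone-binding protein and the hinge protein, rose by 2.21 and 1.97. UQCRFS1, the Rieske iron-sulphur protein, and UQCRB rose by 0.51 and 0.74. UQCRC2, a core protein, had 130.6 and 123.1 FPKM with si-ctrl and 151.9 and 140.7 FPKM with si-PLANE.2, with a log2 fold change of 0.22 and an adjusted p of 0.0702.

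In complex IV, with NDUFA4 and NDUFA4L2 counted here, 12 of 14 tested nuclear members rose, 1 fell and 1 did not pass. COX4I1, the ubiquitous form of a regulatory subunit, had 287 and 247 FPKM with si-ctrl, 224 and 242 with si-PLANE.1 and 871 and 835 with si-PLANE.2. It rose by 1.81 ± 0.11 on the log2 scale (SE, adjusted p = 1.355e-05), and its lung isoform partner COX4I2 stayed at 0. The summed level of the complex was 2894 and 2717 FPKM with si-ctrl, 2646 and 2451 with si-PLANE.1 and 5467 and 5195 with si-PLANE.2. COX5A, COX8A and COX7C rose by 1.71, 1.48 and 1.10 on the log2 scale, and COX6A1, the most abundant nuclear member in si-ctrl, by 0.59. Other ubiquitous forms, COX6B1, COX7A2 and COX7A2L, which helps respiratory complexes associate, rose by 1.03, 0.71 and 1.06, and NDUFA4 rose by 0.96.

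COX6B2, known as the testis form of COX6B1, was the member that fell furthest, from a low level. It had 1.03 and 3.22 FPKM with si-ctrl, 2.24 and 1.10 with si-PLANE.1 and 0.06 and 0.12 with si-PLANE.2, or 19 and 46, 27 and 17, and 2 and 3 counts. The log2 fold change was -3.93 ± 0.69 (SE, adjusted p = 0.00178). Both si-PLANE.2 libraries were below the minimum of 0.5 FPKM, so COX6B2 was tested through its level in si-ctrl. The direction of its call is therefore set in part by the minimum. NDUFA4L2, with 8 to 15 counts per library, had a log2 fold change of 0.15 that was not called and that changed sign under other settings. COX7A1, the heart and muscle form of COX7A2, was listed at 0 in the first 4 libraries and at 0.09 and 0.10 FPKM with si-PLANE.2.

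In complex V 16 of 19 tested nuclear members rose and 3 did not pass, and the summed level was 3950 and 3787 FPKM with si-ctrl, 3472 and 3552 with si-PLANE.1 and 5914 and 5585 with si-PLANE.2. The largest rise was that of ATP5IF1, the inhibitor that binds the catalytic head and blocks ATP hydrolysis. It had 40.6 and 26.6 FPKM with si-ctrl, 32.2 and 36.4 with si-PLANE.1 and 273 and 251 with si-PLANE.2, and rose by 2.84 ± 0.14 on the log2 scale (SE, adjusted p = 8.117e-06). ATP5ME and ATP5MG, membrane subunits linked to the assembly of synthase dimers, rose by 2.56 and 2.21. The catalytic subunit ATP5F1B rose by 0.85 by counts, from 621 and 630 to 717 and 696 FPKM, and was not called by limma on log2(FPKM + 1) (0.17, adjusted p = 0.148). The 3 genes for the same c-ring protein, ATP5MC1, ATP5MC2 and ATP5MC3, rose by 1.63, 0.81 and 1.79. ATP5MK, a small dimer-associated subunit, had 628 and 519 FPKM with si-ctrl, 609 and 534 with si-PLANE.1 and 437 and 371 with si-PLANE.2, with a log2 fold change by counts of -0.10 that was not called and, by limma on log2(FPKM + 1), of -0.50 that was (adjusted p = 0.0258). ATP5MF-PTCD1, a readthrough gene and, beside COX6B2 and NDUFA4L2, a tested member at the lowest levels, had 1.20 to 2.89 FPKM and rose by 0.82 by counts, though its reads overlap those of ATP5MF and its call was lost with DESeq2 (adjusted p = 0.059).

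**Figure D4:**
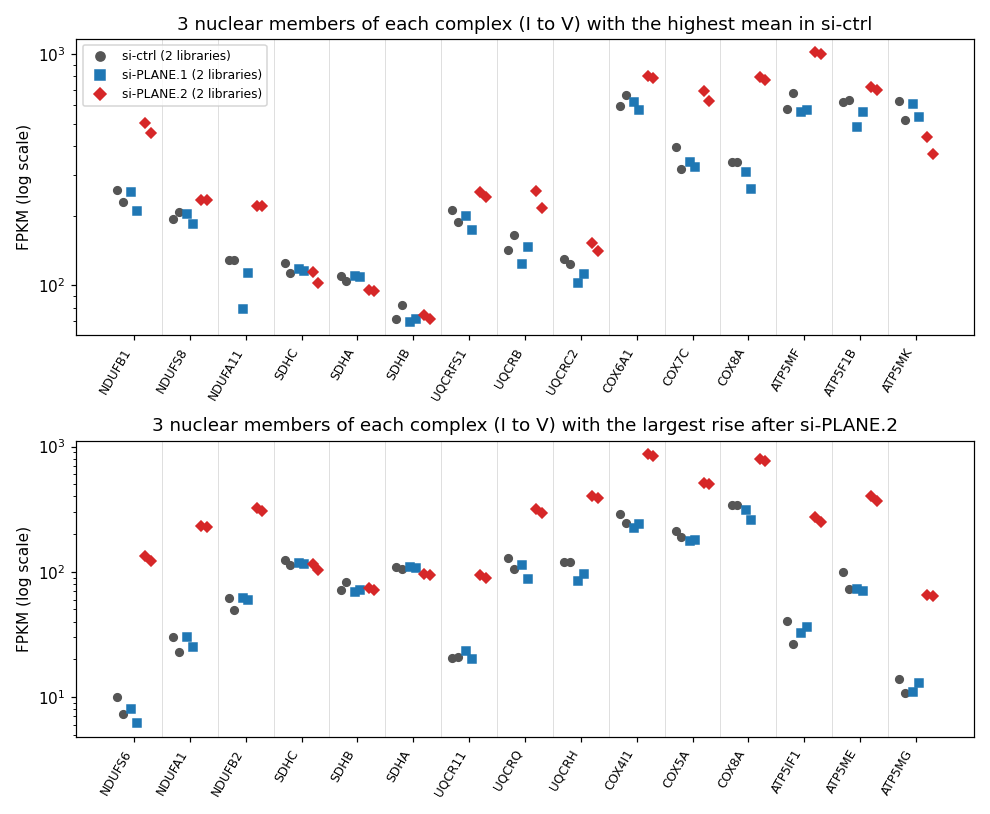
Points show the FPKM (log scale) in each library of the 3 nuclear members of each complex with the highest mean in si-ctrl (top) and of the 3 with the largest rise by counts after si-PLANE.2 (bottom), with si-ctrl as grey circles, si-PLANE.1 as blue squares and si-PLANE.2 as red diamonds. NDUFS6 goes from under 10 FPKM to 133 and 121 FPKM, whereas the complex II members SDHA, SDHB and SDHC stay at similar FPKM in all libraries.

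The change after si-PLANE.2 was compared between long and short members because the length correction and the histone levels differed in these libraries. Of the 28 nuclear members whose main transcript had 305 to 668 bases 26 rose, with a median log2 fold change of 1.07, against -0.20 for all genes of that length, of which 27.2% rose. Of the 27 members with 671 to 1080 bases 27 rose, with a median of 1.45, against 0.26 and 41.7% for genes of that length. Of the 27 members with 1082 to 3665 bases 17 rose, with a median of 0.82, against 0.21 and 39.9%. In each class the members' median was above that of genes of like length. The part of library preparation in these results was not tested.

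For some nuclear members the transcript that led the gene's FPKM also differed. Of 79 tested nuclear members with more than 1 transcript, 77 had the same leading transcript in si-PLANE.1 as in si-ctrl and 64 had the same one in si-PLANE.2. Genes outside the members were not counted in this way, so these numbers cannot be called particular to the members. SDHC is an example. Its transcript SDHC-205 (832 bases, annotated as a target of nonsense-mediated decay) had 66.0 and 72.0 FPKM with si-ctrl, 78.0 and 67.8 with si-PLANE.1 and 1.12 and 0 with si-PLANE.2. The protein-coding SDHC-202 (1420 bases) had 28.4 and 15.2 FPKM, then 23.9 and 24.3 FPKM, then 82.9 and 77.5 FPKM. The gene's total hardly moved in FPKM while its composition was exchanged. NDUFS7, an iron-sulphur subunit of complex I chosen after its values were seen, showed a like exchange, with the decay target NDUFS7-205 at 20.8 and 12.5 FPKM with si-ctrl and listed at 0 in si-PLANE.2 and the coding NDUFS7-201 at 2.61 and 8.22 and then 69.4 and 68.2 FPKM.

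NDUFA10, chosen for the same reason, went the other way. Its retained-intron transcript NDUFA10-211 had 11.2 and 6.59 FPKM with si-ctrl, 0.80 and 0.97 with si-PLANE.1 and 61.0 and 56.0 with si-PLANE.2, while NDUFA10-203 went from 51.6 and 80.3 to 33.3 and 31.8 FPKM. The summed FPKM of NDUFA10 was also higher after si-PLANE.2, 188 and 183 against 87.8 and 106.3 with si-ctrl. These transcripts made up only a part of that rise. By counts the log2 fold change of the gene was 0.10 and was not called. By limma on log2(FPKM + 1) it was 0.94 and was called (adjusted p = 0.00188). UQCRC2-202 was listed at 0 in the first 4 libraries and had 45.5 and 56.9 FPKM with si-PLANE.2. In ATP5MF the 305-base transcript had 129 and 137 FPKM with si-ctrl and 590 and 567 FPKM with si-PLANE.2, and the 398-base one 313 and 338 and then 128 and 152 FPKM. Over all nuclear members, annotated protein-coding transcripts held 79.4% to 80.6% of expected counts with si-ctrl and si-PLANE.1 and 84.5% in both si-PLANE.2 libraries. This share was not worked out for other genes. Splits between overlapping transcripts are estimates, without counts of reads over junctions behind them here.

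**Figure D5:**
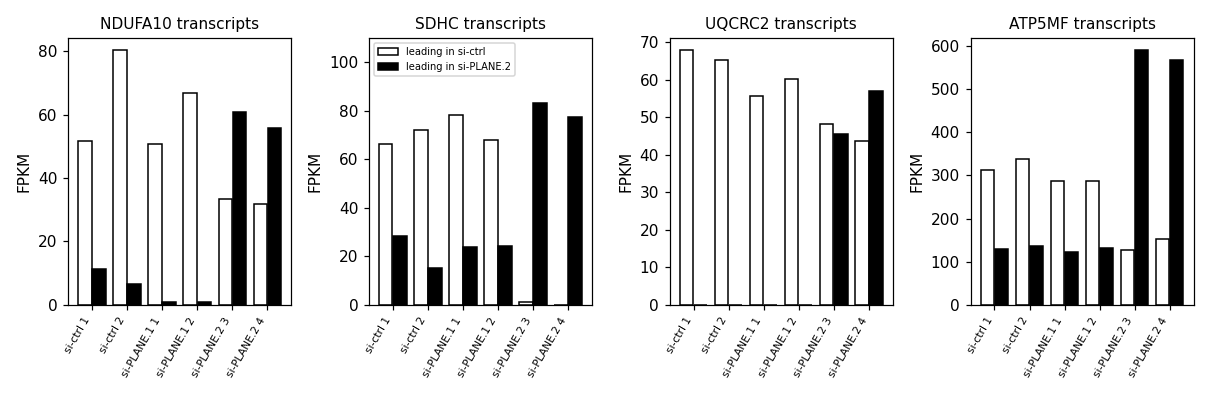
Bars show the FPKM in each library of 2 transcripts of NDUFA10, SDHC, UQCRC2 and ATP5MF, the one that led in si-ctrl (white) and the one that led in si-PLANE.2 (black). In SDHC the white bars are 66.0 to 78.0 FPKM in the first 4 libraries and 1.12 and 0 FPKM with si-PLANE.2, and in UQCRC2 the black bars appear in si-PLANE.2 alone.

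The siRNAs were then compared directly, with all 6 libraries in one fit. Of the 82 nuclear members 74 were higher after si-PLANE.2 than after si-PLANE.1, 2 were lower and 6 did not pass, with a median log2 difference of 1.23. Of the mitochondrial genes 7 were higher and 1 was lower, with a median of 0.69. Over all 14440 genes 31.1% were higher and 33.4% lower. NDUFS6, NDUFA1, ATP5IF1 and COX4I1 differed by 4.27, 3.37, 3.02 and 2.10 on the log2 scale, and the lower members were COX6B2 (-3.63) and NDUFB5 (-0.45). Among the mitochondrial genes the largest differences were those of MT-ND6 (2.23), MT-ND4L (1.61) and MT-CO3 (1.20). MT-ATP6 was also higher (0.69, adjusted p = 0.0423) and MT-ND5 lower (-0.46, adjusted p = 0.0469), but the call of MT-ATP6 was lost with DESeq2 (adjusted p = 0.0805) and those of both genes without either si-PLANE.2 library. The call of NDUFB5 was lost without si-PLANE.2 library 4 (adjusted p = 0.137) or si-PLANE.1 library 2 (adjusted p = 0.0814). For most nuclear subunit genes the si-PLANE.2 and si-PLANE.1 libraries therefore differed by more than the spread within the groups.

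The genes around the respiratory chain were followed from lists of the same pathway. After si-PLANE.2, 31.8% of all genes rose and 32.3% fell. Of 76 genes of the mitochondrial ribosome, which translates the 13 mitochondrial proteins, 54 rose (71.1%) and 7 fell (9.21%). Their median log2 fold change was 0.83. Of 45 assembly factors 25 rose (55.6%) and 3 fell (6.67%), with a median of 0.51. NDUFAF8, PET100, COX14 and UQCC3 rose the furthest, by 2.66, 2.66, 2.39 and 2.29. Among 6 electron carriers and mobile partners 5 rose (83.3%) and 1 fell (16.7%), with a median of 0.93. Cytochrome c (CYCS) rose by 1.67 and the 1 that fell was ETFDH, which feeds electrons from fatty acid oxidation to ubiquinone, by 0.56. Of 14 enzymes of the tricarboxylic acid cycle, which supplies the electrons, 6 rose (42.9%) and 0 fell (median 0.16), with fumarase (FH) at 1.23.

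Of 27 genes for copying, transcribing and processing mitochondrial DNA, 9 rose (33.3%) and 7 fell (25.9%), with a median of 0.0052, near the 31.8% and 32.3% of all genes. POLG2, the accessory subunit of the mitochondrial DNA polymerase, fell by 1.41, and TACO1, a translational activator of MT-CO1, and HSD17B10, a part of mitochondrial RNase P, both rose by 1.20. Of 10 regulators of mitochondrial biogenesis 1 rose (10%) and 4 fell (40%), against the same shares of all genes (median -0.30). ESRRA, a nuclear receptor that binds promoters of respiratory genes, had 17.1 and 15.3 FPKM with si-ctrl, 18.3 and 15.1 with si-PLANE.1 and 51.2 and 48.1 with si-PLANE.2. PPARGC1A, the coactivator PGC-1 alpha, had 43.2 and 42.9 FPKM with si-ctrl, 54.4 and 42.6 with si-PLANE.1 and 4.63 and 7.77 with si-PLANE.2, and fell by 1.89 on the log2 scale. PPARGC1B and GABPA fell too, by 1.22 and 1.05. After si-PLANE.1 none of the genes of these 6 lists was called by edgeR, with medians of -0.19 for the mitochondrial ribosome, -0.10 for assembly factors and for mitochondrial DNA expression, -0.07 for electron carriers, -0.05 for regulators and -0.12 for the tricarboxylic acid cycle. At an unadjusted p under 0.05 these lists held 1, 1, 0, 0, 1 and 0 genes higher and 8, 2, 3, 1, 1 and 2 lower, against 4.67% and 5.77% of all genes.

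Promoters of nuclear members were read from RefSeq (GRCh38.p14) as 250 bases before and 50 after the gene start, and 71 of 90 members matched by symbol alone. They were searched on both strands for words bound by factors known to act on respiratory genes. The NRF1 word GCATGCGC was present in 13 of 71 member promoters (18.3%) and in 3.27% of 27305 promoters of all genes. The ETS word CCGGAAG, which GABP binds, was in 20 (28.2%) against 10.7%, and the YY1 word AAGATGGC in 11 (15.5%) against 3.03%. The TATA word TATAAA was in 7 (9.86%) against 11.9%. The ETS and YY1 words can share the letters AAG where they adjoin, and a match is only a match of letters. Of 39 members that rose over 2-fold after si-PLANE.2, 7 held the NRF1 word, 13 the ETS word and 5 the YY1 word, and of 28 other tested members 6, 7 and 6 did. As shares these were 17.9%, 33.3% and 12.8% of the first set and 21.4%, 25% and 21.4% of the second, and no test was made.

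The promoters of 3 members with large rises and of ATP5MK, a member of similar kind that was not called, are given 5′ to 3′ on the strand of the gene, with each match of the searched words in capitals. NDUFS6 (chr5:1801157-1801456, plus strand) holds the NRF1 word, and NDUFA1 (chrX:119871582-119871881, plus strand), COX4I1 (chr16:85799445-85799744, plus strand) and ATP5MK (chr10:103396426-103396725, minus strand) hold the ETS word, which in ATP5MK occurs more than once.
NDUFS6: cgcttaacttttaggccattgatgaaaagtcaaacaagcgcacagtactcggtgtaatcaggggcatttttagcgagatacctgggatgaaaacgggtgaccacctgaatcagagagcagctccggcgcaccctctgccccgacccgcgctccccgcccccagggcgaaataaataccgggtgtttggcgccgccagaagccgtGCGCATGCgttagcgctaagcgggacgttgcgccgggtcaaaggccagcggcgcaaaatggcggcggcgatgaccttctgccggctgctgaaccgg
NDUFA1: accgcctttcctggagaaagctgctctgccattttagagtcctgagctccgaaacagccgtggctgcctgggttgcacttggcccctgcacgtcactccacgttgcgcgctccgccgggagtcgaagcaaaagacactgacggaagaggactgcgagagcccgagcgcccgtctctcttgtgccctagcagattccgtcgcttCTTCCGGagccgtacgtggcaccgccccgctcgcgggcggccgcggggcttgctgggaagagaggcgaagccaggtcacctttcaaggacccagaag
COX4I1: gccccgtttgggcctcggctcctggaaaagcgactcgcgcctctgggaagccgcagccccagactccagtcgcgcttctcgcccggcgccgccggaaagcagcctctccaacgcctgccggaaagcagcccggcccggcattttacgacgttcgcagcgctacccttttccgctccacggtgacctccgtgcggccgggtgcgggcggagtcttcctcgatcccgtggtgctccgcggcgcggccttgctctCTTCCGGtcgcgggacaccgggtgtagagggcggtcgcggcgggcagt
ATP5MK: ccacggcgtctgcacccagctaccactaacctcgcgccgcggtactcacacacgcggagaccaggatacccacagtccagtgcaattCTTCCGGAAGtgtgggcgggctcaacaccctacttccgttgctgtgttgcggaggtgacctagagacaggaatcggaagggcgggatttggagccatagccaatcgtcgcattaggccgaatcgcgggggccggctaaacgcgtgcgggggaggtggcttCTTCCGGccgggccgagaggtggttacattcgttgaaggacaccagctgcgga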

How the data were processed

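RNA-seq was performed on 6 libraries of A549 cells, and groups were taken from the sample labels. The authors deposited, for every transcript, an expected count that was not normalized. The authors also deposited FPKM values, scaled by depth and an effective transcript length. The submitters' processing notes name Trimmomatic 0.30, HISAT2 2.0.1, HTSeq 0.6.1, DESeq and hg19. The tool that estimated the counts and the annotation release are not given in the sources used here. Expected counts were summed per gene and rounded. Rows without a gene identifier, 16723 of 180253 transcripts with 3.03% to 3.62% of counts, stayed out of the gene sums. Symbols and coordinates came from the GENCODE annotation of GRCh37, which matched 33692 of 34957 identifiers.

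Genes whose mean reached 0.5 FPKM in the libraries of a fit were tested by the quasi-likelihood method of edgeR 4.0.16 with TMM scaling (R 4.3.3), with p-values adjusted by Benjamini-Hochberg over all genes tested and a threshold of 0.05. For each siRNA the fit against si-ctrl used those 4 libraries only, and the siRNAs were compared with each other in all 6. Both comparisons with si-ctrl share the same si-ctrl libraries. Standard errors were derived from fold changes and F statistics. Scripts were tested on simulated data. Alternatives were DESeq2 1.42.0, limma 3.58.1 on log2(FPKM + 1), log2(FPKM + 0.1) and log2(TPM + 1), other scalings and minimum levels, only the most abundant transcript per gene, a replicate block and leaving out each library. Named genes were the mitochondrial genes, the 3 most abundant nuclear members of each complex in si-ctrl, the 3 with the largest called changes in each direction after si-PLANE.2, known isoforms and paralogs, and the 3 tested members with the lowest levels. Members outside this rule are marked where they appear. For other lists, at most 4 genes with the largest changes were named, apart from ETFDH, the only one of its list that fell. Nuclear copies of mitochondrial genes were named otherwise, as the most abundant copy and those flagged as higher after si-PLANE.2. The members and the lists were chosen with earlier results of these data known. Intervals for counting error were not computed. The name and values of 1 gene are not reported here.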

Additional observations from a re-analysis of the deposited data

Results flagged for a closer look

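The response of the subunit genes differed between the 2 siRNAs in a direct test (edgeR's quasi-likelihood test, all 6 libraries in one fit, adjusted p under 0.05). This held for 74 of 82 nuclear members and 7 of 13 mitochondrial genes that were higher after si-PLANE.2 than after si-PLANE.1, where 31.1% of all genes were higher and 33.4% lower. With limma 3 or 4 mitochondrial genes were higher, and the calls of MT-ATP6, MT-ND5 and NDUFB5 were lost under other settings. Single log2 differences were 4.27 for NDUFS6, 3.37 for NDUFA1, 3.02 for ATP5IF1, 2.10 for COX4I1, 2.23 for MT-ND6, 1.61 for MT-ND4L, 1.20 for MT-CO3 and 0.69 for MT-ATP6. On the lower side they were -3.63 for COX6B2, -0.46 for MT-ND5 and -0.45 for NDUFB5. How the si-PLANE.2 libraries were made cannot be told apart from the second siRNA.

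Of the nuclear copies of mitochondrial genes, which are not members, 2 carried signal that was higher in the si-PLANE.2 libraries than in si-ctrl, while 13 of 18 tested were lower. Over all genes 31.8% were higher and 32.3% lower. Most copies that were lower passed the minimum level through si-ctrl, so the direction of this count is set in part by the minimum. MTCO1P12, which shares 62.2% of the 31-base words of MT-CO1, had a mean of 93.6 FPKM in si-PLANE.2, from libraries at 99.9 and 87.2 FPKM, against 5.06 and 6.45 FPKM in si-ctrl and 5.02 and 6.29 FPKM in si-PLANE.1. MTND6P3 had a mean of 16.2 FPKM in si-PLANE.2, from libraries at 16.3 and 16.0 FPKM, against 1.51 and 1.94 FPKM in si-ctrl.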

How the results depend on the processing

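After si-PLANE.1, 5 genes of all tested were called, and this count was 124 with DESeq2, 1 with limma on log2(FPKM + 1), 3 on log2(FPKM + 0.1), 1 on log2(TPM + 1), 17 with all 6 libraries in one fit, 0 with the most abundant transcript, and 1 to 5 when a library was left out (1 without si-ctrl library 1 or si-PLANE.1 library 2, 3 without si-ctrl library 2). si-ctrl and si-PLANE.1 share the numbers 1 and 2. Deviations of same-numbered libraries correlated with r = 0.39 over 14440 genes, a hint from the data and not from the design. A replicate block by these numbers called 1225 of 14535 genes in either direction. Among them were 2 of 13 mitochondrial and 7 of 82 nuclear members, all lower. With limma in the same 3 units the nuclear median after si-PLANE.1 was -0.12, -0.12 and -0.046, after si-PLANE.2 0.85, 0.86 and 0.69, and between the siRNAs 1.03, 1.04 and 0.80. These units also moved the all-gene median for si-PLANE.2 to -0.22, -0.27 and -0.37, and the share of calls that were higher from 49.7% to 37.1%, 36.9% and 28.6% (between the siRNAs from 48.2% to 32.8%, 32.3% and 22.2%). The mitochondrial median between the siRNAs was 0.25, 0.25 and 0.0099, with 4, 4 and 3 genes higher. On log2(TPM + 1) the mitochondrial median was 0.011 after si-PLANE.1 and -0.024 after si-PLANE.2. Between the siRNAs the nuclear median was 1.31 without a minimum level and 1.40 with the most abundant transcript.

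Where 1 library was left out, the lone library of its group was assumed to vary like the others. This gave mitochondrial medians after si-PLANE.1 of -0.28 (without si-ctrl library 1) to 0.032 (without si-ctrl library 2), and after si-PLANE.2 of 0.062 (without si-ctrl library 1) to 0.67 (without si-ctrl library 2), with 2 to 8 mitochondrial genes higher. The lowest count was without si-PLANE.2 library 3. The nuclear median after si-PLANE.2 was 0.99 to 1.11, and between the siRNAs the nuclear median was 1.20 to 1.31, the mitochondrial median 0.40 to 0.80 and the count of mitochondrial genes higher 4 to 7. Single genes turned direction after si-PLANE.2 as follows, and the cause was not tested. With limma in the 3 units MT-ND2 was at -0.11, -0.11 and -0.27, SDHC at -0.13, -0.13 and -0.29, SDHA at -0.17, -0.17 and -0.33, SDHB at -0.074, -0.075 and -0.23, NDUFA4L2 at -0.064, -0.14 and -0.15, and MT-ATP6 on log2(TPM + 1) at -0.024. With the most abundant transcript SDHC was at -6.63, UQCRC2 at -0.35 and NDUFA10 at -0.83, which follows from the exchange of transcripts. MT-CO1 was at 0.0029 without a minimum level. When a library was left out, MT-CO1 came to between -0.26 and 0.26, ATP5MK to between -0.23 and 0.044, NDUFA10 to between -0.055 and 0.26, MT-ATP8 to between -0.85 and 0.059 and NDUFA4L2 to between -0.17 and 0.45. As a share of summed FPKM in place of counts, the mitochondrial genes held 17.2% in si-ctrl, 16.6% in si-PLANE.1 and 12.99% in si-PLANE.2. The si-ctrl libraries stood at 14.68% and 19.71%. This share includes MT-ATP8, whose FPKM rested on few bases. Without MT-ATP8 the summed mitochondrial FPKM was not lower in si-PLANE.2. It was 69052 and 90896 in si-ctrl, 71168 and 80746 in si-PLANE.1, and 91690 and 91993 in si-PLANE.2.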
